A study of Mus musculus with 6 samples.

Results

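Chemokines and their receptors were examined in whole lung of mice that express a dominant-negative BMP type 2 receptor in smooth muscle. Members were all probe sets of the Affymetrix array whose single annotated gene symbol starts with Ccl, Cxcl, Cx3cl, Xcl, Ccr, Cxcr, Cx3cr or Xcr followed directly by a number. This gave 78 of 45037 probe sets, standing for 50 of the 18193 genes with a symbol of their own: 33 ligands and 17 receptors. Another 4 probe sets carried several symbols, those of Ccl19, Ccl21 and Ccl27 genes and their copies, and were not members.

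The 6 arrays formed 3 groups, each with 1 female and 1 male pool of 3 mice. The female control pool was labelled only with its sex and the strain FVB/N, and the male control pool as carrying SM22-rtTA only, the transactivator without the receptor transgene. The transgenic pools were SM22-dnBMPR2 inducible mice, with the transgene switched on for 1 week or for 8 weeks. The SM22 promoter, that of the Tagln gene, directs expression to smooth muscle, and rtTA is a transactivator that needs an inducing drug. Per the series description, all controls carried the transactivator alone, and the transgenic mice had a raised pressure in the right ventricle. The labels gave no age, no inducer and, for the controls, no time. These cannot be told apart from the transgene in any comparison with control, and both durations were compared with the same pair of control pools. Whether a transgenic mouse shared the FVB/N strain of the female control was not stated.

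Chemokines are small secreted proteins that steer leukocytes along gradients by binding G protein-coupled receptors on the cell surface. They are classed by the spacing of their first cysteines as CC, CXC, C or CX3C. In lung, CXC ligands of Cxcr2 recruit neutrophils, CC ligands of Ccr1 and Ccr2 recruit monocytes and macrophages, and interferon-inducible CXC ligands recruit activated T cells and NK cells through Cxcr3.

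All values below are log2 intensities after quantile normalization, with low values raised to a floor of 3.95, so a value at the floor is an upper limit. A probe set was kept for testing when its mean over the 6 arrays lay above 5.15. This held for 56 member probe sets of 38 genes, and the other 22 are described by their values only. Changes are differences on the log2 scale, given with the standard error (SE) of the linear model with group and sex. A probe set was called where its adjusted p lay below 0.05 over all 27022 kept probe sets. Where a gene had several probe sets, the brightest stands for it unless stated. In whole tissue, fewer cells of a type and less RNA per cell cannot be told apart.

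The lung markers Sftpc, Sftpb, Sftpa1, Sftpd, Scgb1a1, Aqp5 and Ager were all kept, and their mean level lay between 12.57 and 12.74 in every pool. The mean of 7 cardiac muscle markers lay between 9.10 and 9.68 in the control and 1 week pools. It was 6.46 in the female and 7.72 in the male 8 week pool. The part of cardiac tissue in the chemokine values was not tested. The female control stood apart from the other 5 arrays at Cxcl1 and Cxcl2, as described below.

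Promoters of 5 genes named in the results are shown. Cxcl1 and Cxcl2 were the genes at which the female control pool lay furthest above the highest other pool. Ccr1 and Ccl9, a receptor and one of its ligands, were called after 8 weeks. Cxcl10, an interferon-inducible ligand, had the highest change between 1 and 8 weeks. Each sequence is the 250 bases before the gene's start, from RefSeq with build GRCm38.p6, 5′ to 3′ on the gene's strand. Capitals mark matches to the NF-kB consensus, to the interferon-stimulated response element (ISRE, GAAA and GAAA with 2 free bases between) or to the PU.1 core (GAGGAA), on either strand. Cxcl1 lies at chr5:90890995-90891244, plus strand. Cxcl2 lies at chr5:90903649-90903898, plus strand. Cxcl10 lies at chr5:92348890-92349139, minus strand. Ccl9 lies at chr11:83578637-83578886, minus strand. Ccr1 lies at chr9:123968693-123968942, minus strand.
Cxcl1: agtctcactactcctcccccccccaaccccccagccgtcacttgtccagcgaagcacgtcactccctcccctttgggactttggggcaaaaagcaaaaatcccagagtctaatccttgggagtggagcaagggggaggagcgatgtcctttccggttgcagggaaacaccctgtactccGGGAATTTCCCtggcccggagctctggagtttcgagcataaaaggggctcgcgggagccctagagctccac
Cxcl2: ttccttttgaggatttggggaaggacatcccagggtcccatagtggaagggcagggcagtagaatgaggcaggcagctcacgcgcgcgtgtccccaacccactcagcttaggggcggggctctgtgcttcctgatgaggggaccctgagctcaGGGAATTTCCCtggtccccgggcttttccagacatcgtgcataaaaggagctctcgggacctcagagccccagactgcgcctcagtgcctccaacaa
Cxcl10: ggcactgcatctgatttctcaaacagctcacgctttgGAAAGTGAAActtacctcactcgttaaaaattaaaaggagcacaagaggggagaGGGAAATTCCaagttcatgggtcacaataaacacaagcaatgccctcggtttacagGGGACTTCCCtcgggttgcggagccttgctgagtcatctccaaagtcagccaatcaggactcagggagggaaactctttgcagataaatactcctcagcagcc
Ccl9: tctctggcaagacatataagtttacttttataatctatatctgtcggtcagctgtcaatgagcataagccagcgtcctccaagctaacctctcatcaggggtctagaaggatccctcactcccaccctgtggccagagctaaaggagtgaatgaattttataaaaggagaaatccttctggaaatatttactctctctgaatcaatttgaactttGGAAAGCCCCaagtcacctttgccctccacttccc
Ccr1: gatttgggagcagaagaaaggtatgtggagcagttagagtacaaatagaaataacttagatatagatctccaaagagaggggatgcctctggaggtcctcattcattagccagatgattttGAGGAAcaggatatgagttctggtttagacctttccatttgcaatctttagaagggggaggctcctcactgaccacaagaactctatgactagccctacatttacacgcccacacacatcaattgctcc

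Cxcl1 and Cxcl2 held the same NF-kB match, GGGAATTTCC, starting 71 and 97 bases before the start, and a second match, on the other strand and 1 base further on, overlapped it. Cxcl10 held 2 NF-kB matches, starting 159 and 103 bases before the start, and 1 ISRE match at 213 bases. Ccl9 held 1 NF-kB match at 35 bases, and Ccr1 held 1 PU.1 core at 129 bases. The reference table had 41 promoters of 37 member genes. Of these, 8 held an NF-kB match (Ccl9, Ccl20, Ccr3, Ccr6, Cxcl1, Cxcl2, Cxcl3 and Cxcl10), against 3.9% of all 32851 promoters. An ISRE match was in 2 (Cxcl10 and Cxcl14), against 2.98% of all, and a PU.1 core in 13, against 23.3% of all. The interferon-gamma-activated site (GAS, TTCNNNGAA) was in 4, against 7.02% of all. The BMP response element (GGCGCC) was in 2, those of Cx3cl1 and Cxcl12, against 9.59% of all. The promoters of Cxcl9 and Ccl6 are not shown and held no match to any of these motifs. The 8 week changes were 2.30 for Ccr1, 2.10 for Cxcl9, 1.83 for Ccl6 and 1.26 for both Ccl9 and Cxcl10. Whether a motif bears on a change was not tested. A match describes the letters in the window and is not evidence that a factor binds there.

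After 8 weeks of transgene activation, Ccr1, Cxcl9, Ccl6, Ccl12, Ccl8 and Ccr9 had the highest changes of the kept genes. Cxcl9 passed the filter only through its 8 week pools, as described below. Of the 56 kept member probe sets 3 were called, all higher: Ccr1, Ccr9 and Ccl9. The count was 0 without the sex term, without the filter, with least squares, with only the arrays compared, and with any 1 array but the male 8 week pool left out. Over all kept probe sets 0.596% were called, 0.207% higher and 0.389% lower. The median change of the kept members was 0.33, against 0.03 over all kept probe sets. Without the female control that of the members was 0.50, and that of all probe sets was not computed. Both 8 week pools lay above both control pools for 28 of the 56, where 23% of all probe sets did so. Both lay below for 3, where 18.8% of all probe sets did so. An unadjusted p below 0.05 was found for 21 members, all higher, where 11.8% of all probe sets had one in that direction. With values as deposited the median of all probe sets stood at −0.13 and that of the members at 0.14, and with arrays centred they stood at 0.14 and 0.43. The called probe sets of the whole array split 34.8% higher as chosen, 16.5% as deposited and 45.1% centred, while the called members were higher in each.

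**Figure D1:**
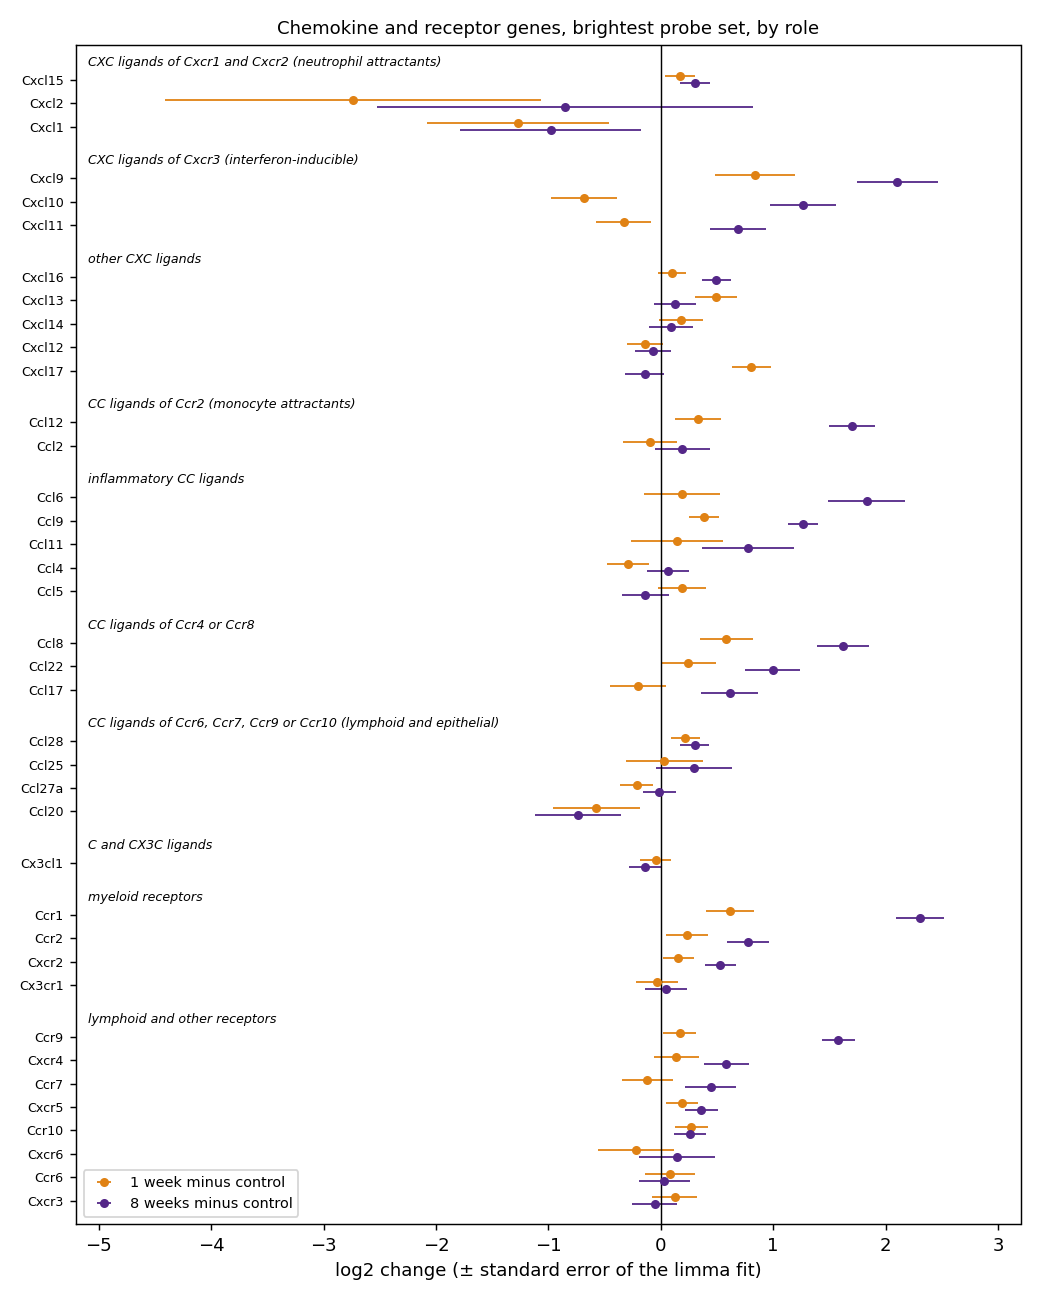
Log2 change of the 38 kept genes after 1 week (orange) and 8 weeks (purple) against control, each at its brightest probe set, with the standard error of the fit, grouped by role. Ccr1 stands highest at 8 weeks, at 2.30, and the widest bars are those of Cxcl2 and Cxcl1.

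Ccr1 is the receptor for inflammatory CC ligands on neutrophils, monocytes and macrophages. Its level was 5.36 in the female and 6.17 in the male control, 6.26 and 6.50 at 1 week, and 8.03 and 8.12 at 8 weeks. Both 8 week pools lay above all other pools. Ccr1 rose by 2.30 ± 0.21 (SE; 2.66 in females and 1.95 in males, adjusted p = 0.047), a 4.94-fold difference. Its second probe set was 5.03 and 5.21 in controls, 6.01 and 4.87 at 1 week, and 6.74 and 6.66 at 8 weeks. That probe set had a change of 1.58 ± 0.35 and was not called (adjusted p = 0.108).

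Ccl9 is a Ccr1 ligand made by macrophages and other myeloid cells. Its level was 7.92 and 7.71 in the female and male controls, 8.30 and 8.10 at 1 week, and 9.26 and 8.90 at 8 weeks. At this probe set the 3 groups did not overlap, and the order control, 1 week, 8 weeks held in both sexes. Ccl9 rose by 1.26 ± 0.13 at 8 weeks (1.34 in females and 1.19 in males, adjusted p = 0.0498). The second Ccl9 probe set changed by 1.61 ± 0.42 (2.38 and 0.84) and was not called (adjusted p = 0.13). It stood at 5.26 and 5.97 in the female and male controls and at 6.49 and 5.72 at 1 week. These groups overlapped, and the male pool was lower at 1 week than in control.

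Ccl6, the neighbour of Ccl9 in the genome and a second myeloid Ccr1 ligand, stood at 9.33 and 10.06 in controls, 10.19 and 9.58 at 1 week, and 11.64 and 11.41 at 8 weeks. The 8 week pools lay above the others, with a change of 1.83 ± 0.34 (adjusted p = 0.0906). Its other probe set had a change of 2.07 ± 0.36 (adjusted p = 0.0832). Neither passed. The other kept inflammatory CC ligands were closer to control. The eosinophil attractant Ccl11 had 0.78 ± 0.41 (1.44 in females and 0.11 in males), Ccl4 had 0.06 ± 0.18, and the T cell and NK cell product Ccl5 had −0.14 ± 0.21.

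The Ccr2 axis attracts inflammatory monocytes. Its ligand Ccl12 stood at 5.23 and 4.90 in the female and male controls, 5.91 and 4.88 at 1 week, and 7.11 and 6.43 at 8 weeks. The 8 week pools lay above all others, and the change of 1.70 ± 0.21 did not pass (adjusted p = 0.0571). Ccl2, a ligand of the same receptor, showed 0.19 ± 0.24, with 0.64 in females and −0.26 in males. Ccl8, which in mice acts mainly on Ccr8, stood at 6.13 and 6.52 in controls, 7.14 and 6.69 at 1 week, and 7.91 and 7.99 at 8 weeks. Its groups did not overlap, and the change of 1.62 ± 0.23 did not pass (adjusted p = 0.0655).

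Both kept Ccr4 ligands, which draw regulatory and type 2 helper T cells, had higher values at 8 weeks in both sexes. Ccl22 changed by 1.00 ± 0.25 (adjusted p = 0.123) and Ccl17 by 0.61 ± 0.25 (adjusted p = 0.238). The 8 week and control pools overlapped for Ccl17, whose female control stood at 8.06 and male 8 week pool at 7.55. They did not overlap for Ccl22.

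**Figure D2:**
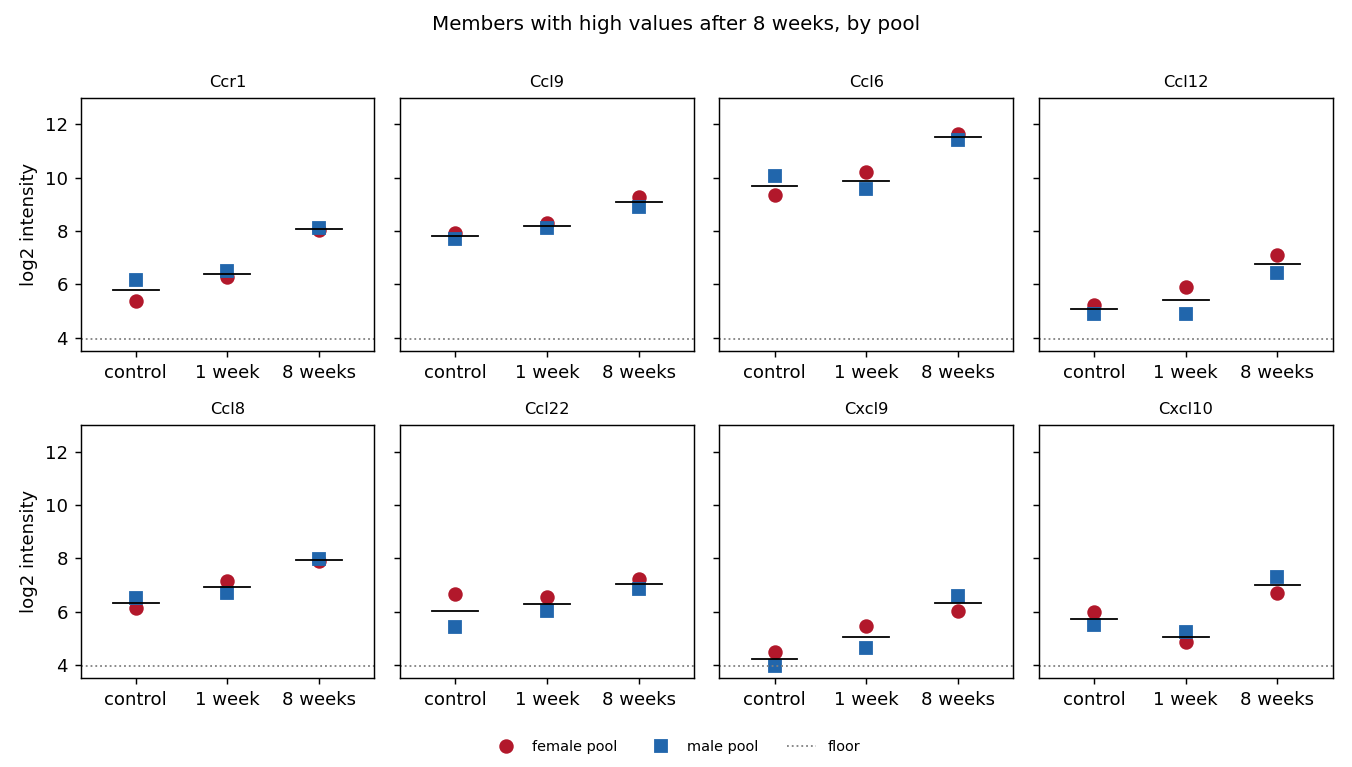
Log2 intensity of 8 member genes by group, with a circle for the female pool, a square for the male pool, a bar at the group mean and a dotted line at the floor of 3.95. In each panel both 8 week pools lie above both control pools. Cxcl10 is the one of the 8 with both 1 week pools below both controls.

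The 3 Cxcr3 ligands, induced by interferons, had values of both signs at 1 week and higher values at 8 weeks in both sexes. None was called. Cxcl9 stood at 4.47 in the female control and at the floor in the male control, at 5.46 and 4.64 at 1 week, and at 6.03 and 6.60 at 8 weeks. Its change of 2.10 ± 0.36 is a lower bound because of the control at the floor (adjusted p = 0.0807). A second Cxcl9 probe set had 0.39 ± 0.47. Cxcl10 stood at 5.99 and 5.48 in controls, 4.85 and 5.25 at 1 week, and 6.72 and 7.28 at 8 weeks. It was lower than control at 1 week in both sexes (−0.69 ± 0.29, adjusted p = 0.901) and higher at 8 weeks (1.26 ± 0.29, adjusted p = 0.113). Cxcl11 had −0.33 ± 0.25 and 0.69 ± 0.25 at the same times, and its 1 week value was 0.033 without the male control. Their receptor Cxcr3, found on activated T cells and NK cells, stood between 6.02 and 6.64 in all pools, with −0.05 ± 0.20 at 8 weeks.

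For Cxcl1 and Cxcl2, which bind Cxcr2, a single pool stood apart. Cxcl2 stood at 10.55 in the female control and at the floor in the male control. It was 4.92 and 4.11 at 1 week and 6.34 and 6.45 at 8 weeks. The first Cxcl1 probe set stood at 10.39 and 4.85 in controls, 4.77 and 5.18 at 1 week, and 6.97 and 6.29 at 8 weeks. The second stood at 10.02 and 5.67, 5.22 and 5.81, and 6.64 and 6.36. The third and brightest was 11.05 and 6.41 in controls, 8.26 and 6.67 at 1 week, and 8.58 and 6.93 at 8 weeks. In all 4 probe sets the female control was the highest of the 6 pools.

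The gap between the female control and the next highest pool was 4.10 for Cxcl2 and 3.42, 3.39 and 2.47 for the Cxcl1 probe sets. Ranked over all 27022 kept probe sets by this gap, these were the 4 largest. They were also the only ones above 2 for that array. Among the other arrays, 0 or 1 probe set stood that far above the rest, and none was a member. Next in rank with a gene symbol were Nfkbiz (1.77), which encodes a nuclear regulator of NF-kB target genes, Nfe2l2 (1.56) and the stress-induced transcription factor Atf3 (1.46). Ccl20, a Ccr6 ligand made by epithelium, was the next member, at rank 59 with a gap of 0.96. Its level was 7.51 and 5.08 in controls, 6.55 and 4.89 at 1 week, and 5.98 and 5.14 at 8 weeks.

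**Figure D3:**
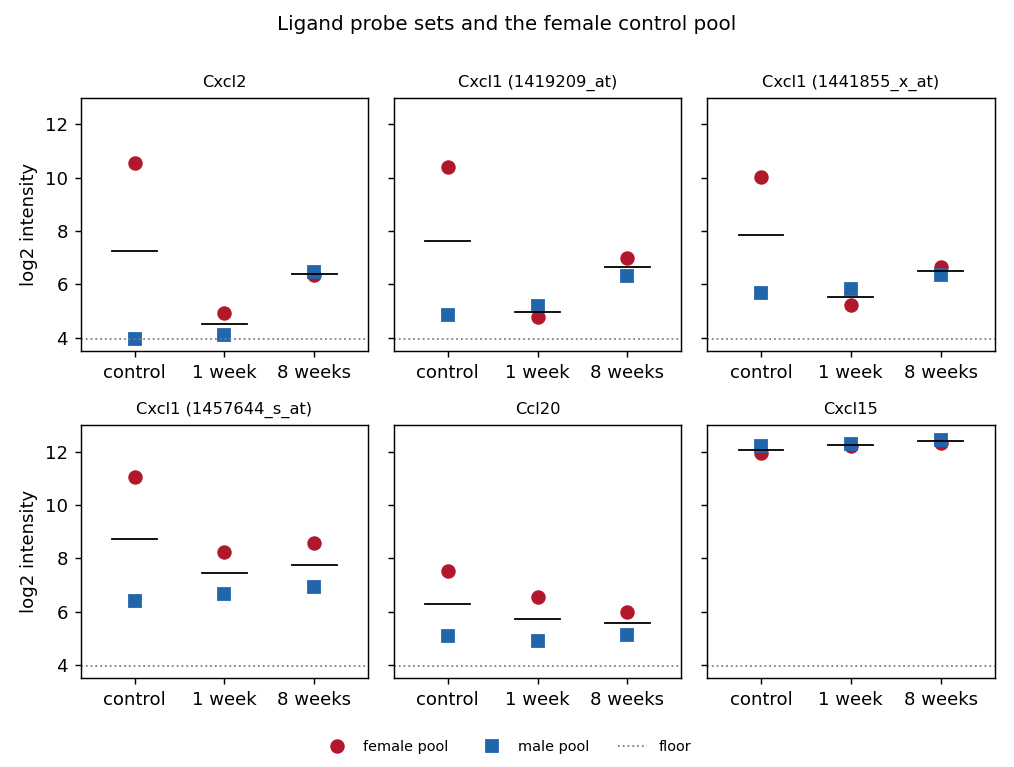
Log2 intensity by group of Cxcl2, the 3 Cxcl1 probe sets, Ccl20 and Cxcl15, with a circle for the female and a square for the male pool, a bar at the group mean and a dotted line at the floor. The female control lies above the other 5 pools for Cxcl2, Cxcl1 and Ccl20 and below them for Cxcl15.

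With that pool, Cxcl2 changed by −2.74 ± 1.67 at 1 week (adjusted p = 0.944), the lowest of the kept members, and by −0.86 ± 1.67 at 8 weeks (adjusted p = 0.79). Without the female control the fitted changes were 0.39 and 2.24. Cxcl1 changed by −1.27 ± 0.81 and −0.98 ± 0.81 with the pool and by 0.24 and 0.53 without it. In males alone, Cxcl2 differed from control by 0.16 at 1 week and by 2.50 at 8 weeks. Since the male control lay at the floor, these and the values of Cxcl2 without the female control are lower bounds. The transgene effect differed between the sexes by −6.25 for Cxcl2 and −3.02 for the brightest Cxcl1 probe set (females minus males). That fit took the 1 and 8 week pools of a sex as replicates and rested on 1 control pool of each sex, and the genes were chosen for the female control's values, so these are descriptions. In the limma fit of that difference 0% of all probe sets were called and 2.35% had an unadjusted p below 0.05.

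Other neutrophil-related members varied less. Cxcl15, a chemokine of lung epithelium, stood at 11.96 and 12.21 in controls, 12.22 and 12.29 at 1 week, and 12.33 and 12.44 at 8 weeks, with a change of 0.30 ± 0.13 at 8 weeks (adjusted p = 0.265). Its second probe set had 0.53 ± 0.13 (adjusted p = 0.126). Cxcr2, the receptor that neutrophils use for these ligands, stood at 6.12 and 6.22 in controls, 6.21 and 6.44 at 1 week, and 6.70 and 6.69 at 8 weeks. Both 8 week pools lay above the rest, and the change of 0.53 ± 0.14 did not pass (adjusted p = 0.132).

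Ccr2 and Ccr9 each had probe sets that differed among themselves. Of the 4 Ccr2 probe sets, the brightest stood at 6.22 and 6.73 in controls, 6.63 and 6.79 at 1 week, and 7.29 and 7.22 at 8 weeks (0.78 ± 0.18 at 8 weeks, adjusted p = 0.116). Of 2 others, one had 0.97 ± 0.19 (adjusted p = 0.0936) and the other 0.18 ± 0.20. The fourth stood at 6.88 in the female and 4.43 in the male control, 8.58 and 6.63 at 1 week, and 7.97 and 6.17 at 8 weeks. This probe set was higher in the female than in the male pool of every group, by 1.80 to 2.45. Within each sex the order was control, 8 weeks, 1 week, and across sexes the groups overlapped. Its changes were 1.96 ± 0.20 at 1 week (adjusted p = 0.766) and 1.42 ± 0.20 at 8 weeks (adjusted p = 0.0643). The other 3 Ccr2 probe sets had changes of 0.13 to 0.23 at 1 week. It was chosen after its values were seen.

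Ccr9 is a receptor of thymic and gut-homing T cells, with Ccl25 as its ligand. The probe set that was called stood at 5.04 and 5.28 in controls, 5.28 and 5.38 at 1 week, and 6.78 and 6.71 at 8 weeks. It rose by 1.58 ± 0.15 (1.74 in females and 1.42 in males, adjusted p = 0.047). Its name ends in _x_at, a suffix that Affymetrix gives to probe sets with probes that can match other sequences. The second Cxcl1 probe set and that of Ccl27a end in the same suffix. The other 4 Ccr9 probe sets stood between the floor and 4.75 on every array, and none was kept. Ccl25 changed by 0.30 ± 0.34, with −0.39 in females and 0.98 in males.

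**Figure D4:**
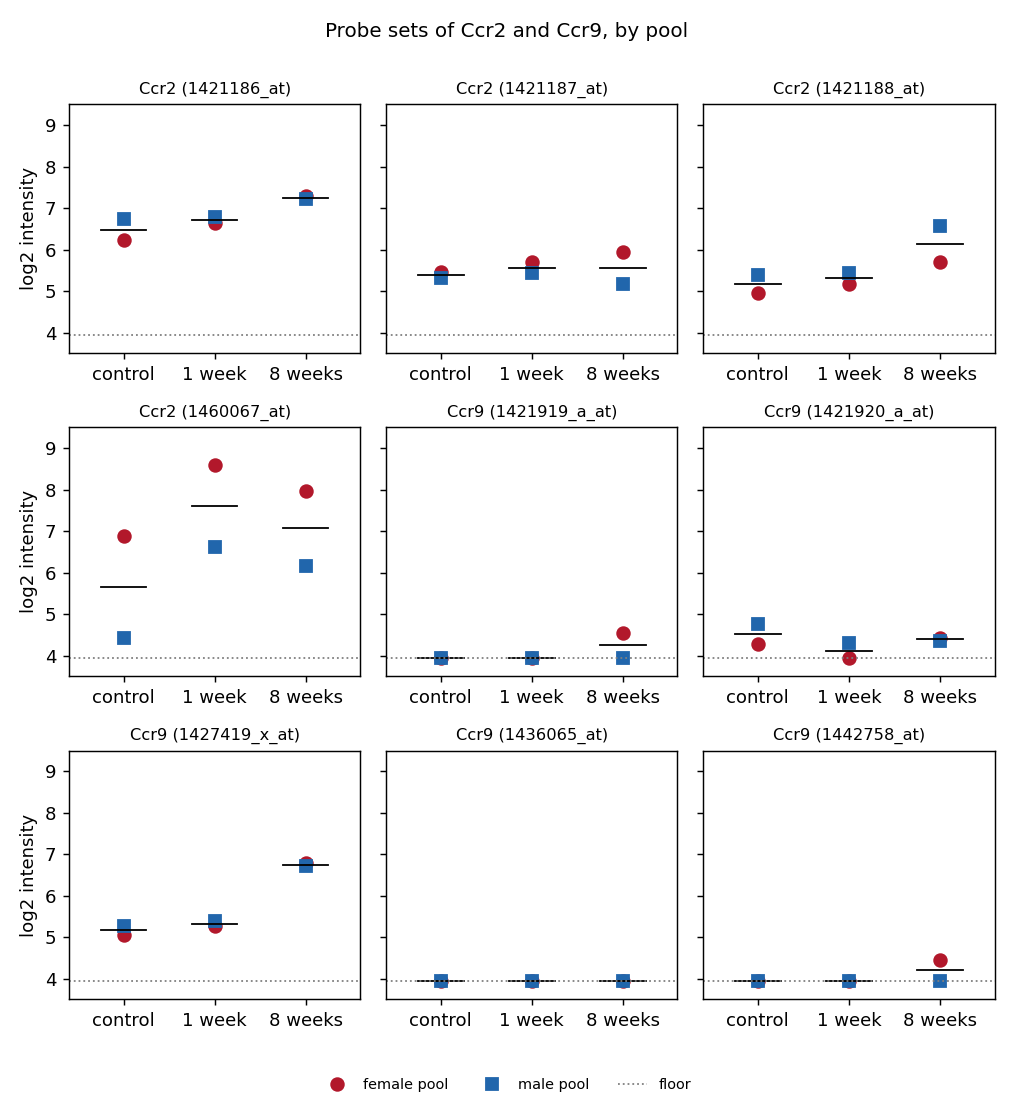
Log2 intensity by group of the 4 Ccr2 and 5 Ccr9 probe sets, with a circle for the female and a square for the male pool, a bar at the group mean and a dotted line at the floor of 3.95. One of the 5 Ccr9 probe sets stands clear of the floor, and in the Ccr2 probe set of the fourth panel the female pool lies above the male pool by 1.80 to 2.45 in every group.

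The remaining receptors had smaller changes at 8 weeks. Cxcr4, the receptor for Cxcl12, had 0.58 ± 0.20 and Ccr7, which guides cells to lymph nodes, 0.44 ± 0.23. Cxcr5, a chemokine receptor found on B cells, had 0.36 ± 0.14. Ccr10 (0.26), Cxcr6 (0.14), the fractalkine receptor Cx3cr1 (0.04) and Ccr6 (0.03) followed. Of the 12 kept receptor genes, 9 were higher at 8 weeks in both sexes and none was lower in both, where 36.5% of all probe sets were higher and 29% lower in both. The counts were 14 and 1 of the 26 kept ligand genes. That 1 was Cx3cl1, the membrane-bound ligand fractalkine of endothelium and epithelium, at −0.14 ± 0.14. Its other kept probe set had −0.63 ± 0.29 (adjusted p = 0.279), with both 8 week pools below both controls, and so had the second Cxcr6 probe set (−0.28 ± 0.22, adjusted p = 0.478). These were the 3 probe sets whose 8 week pools lay below. At the brightest Cx3cl1 probe set the change was −0.0048 with arrays centred.

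The remaining ligands had no called probe set at 8 weeks. Cxcl12, which retains leukocytes and progenitors through Cxcr4, stood between 10.53 and 10.96 in all pools at its brightest probe set (−0.07 ± 0.16), and its other 2 had 0.35 and 0.26. Cxcl14 had 0.09 ± 0.19 and 0.49 ± 0.27 at its 2 probe sets. The B cell attractant Cxcl13 had 0.13 ± 0.19 at its brighter and −0.38 ± 0.47 at its other probe set. The Cxcr6 ligand Cxcl16 had 0.49 ± 0.13 (adjusted p = 0.129) and 0.29 ± 0.15. Ccl28 had 0.30 ± 0.13 and, at its other probe set, 0.69 ± 0.24 (adjusted p = 0.194), with the 8 week pools above the controls for both. Ccl27a stood at −0.01 ± 0.15 and Ccl20 at −0.74 ± 0.39, with −1.53 in females and 0.06 in males.

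After 1 week of activation no member was called. In limma 0 of 56 kept members and 0% of all probe sets had an adjusted p below 0.05. Of the members, 5 had an unadjusted p below 0.05, all higher, where 3.03% of all probe sets did in that direction. This count of 5 moved when single arrays were left out, and the share over all probe sets in those fits was not computed. The fit with trend and robust settings and least squares also called 0 members. The median change of the kept members was 0.14, against 0.0043 over all kept probe sets. Without the female control that of the members was 0.04, and that of all probe sets was not computed. Both 1 week pools lay above both controls for 10 members and below for 1, where 12.5% and 11.1% of all probe sets did so.

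The highest values at 1 week among genes higher in both sexes were those of Cxcl9 (0.84 ± 0.36, a lower bound for the reason given above), Cxcl17 (0.81 ± 0.17), Ccr1 (0.61 ± 0.21), Ccl8 (0.58 ± 0.23), Cxcl13 (0.49 ± 0.19) and Ccl9 (0.38 ± 0.13). All 6 had both 1 week pools above both controls at their brightest probe set. The other kept probe sets of Cxcl9, Ccr1, Cxcl13 and Ccl9 had −0.02, 0.32, 0.32 and 0.49. Each of those was lower than control in males, and its 1 week and control pools overlapped. Adjusted p values at the brightest probe sets were 0.894 to 0.901. Lower in both sexes were Cxcl10, Ccl20 (−0.57 ± 0.39), Cxcl11, Ccl4 (−0.29 ± 0.18) and Ccl27a (−0.22 ± 0.15). Of these, Cxcl10 was the 1 member whose pools did not overlap. Without the female control, Ccl20 stood at 0.02 and Ccr1 at 0.29.

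Cxcl17, a chemokine of mucosal and airway epithelium, had its highest level at 1 week. It stood at 9.35 and 8.66 in the female and male controls, 9.96 and 9.66 at 1 week, and 8.97 and 8.75 at 8 weeks. The 1 week pools lay above all others in both sexes. From 1 to 8 weeks it changed by −0.95 ± 0.17 (adjusted p = 0.128), the lowest value of any kept member in that comparison.

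Between 1 and 8 weeks no member was called by limma. The count was 0 of 56, with 0% of all probe sets called. An unadjusted p below 0.05 was found for 19 members higher and 2 lower, where 9.32% and 9.18% of all probe sets had one. The total of 21 also moved when an array was left out, and the share over all probe sets in that fit was not computed. The fit with trend and robust settings called 7 members, and least squares called 0. The first of these also called many probe sets outside the members, counted in the closing section on processing. The median change was 0.37, against 0.02 over all kept probe sets. Both 8 week pools lay above both 1 week pools for 29 members and below for 3, against 20.7% and 17.7% of all probe sets. Genes higher in both sexes were led by Cxcl10 (1.95 ± 0.29, adjusted p = 0.11), Cxcl2 (1.88 ± 1.67), Ccr1 (1.69 ± 0.21, adjusted p = 0.106), Ccl6 (1.64 ± 0.34), Ccr9 (1.41 ± 0.15) and Ccl12 (1.37 ± 0.21). Both sexes were higher in 35 of the 56 probe sets and lower in 6, where 36.3% and 31.6% of all probe sets were. Genes lower in both sexes were, besides Cxcl17, Cxcl13 (−0.37 ± 0.19) and Ccl5 (−0.33 ± 0.21). Cxcl2 changed by 1.42 in females and 2.34 in males.

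Members that were not kept included several inflammatory ligands. Cxcl5, a Cxcr2 ligand of alveolar epithelium, stood at 4.31 and the floor in controls, at the floor and 4.66 at 1 week, and at 5.54 and 5.24 at 8 weeks. Cxcl3 stood at 4.85 and 4.21, the floor and 4.60, and 5.22 and 5.14. For both, each 8 week pool lay above every other pool. The monocyte attractant Ccl7 stood at 4.98 and 4.44 in controls, 4.93 and 4.98 at 1 week, and 5.53 and 5.45 at 8 weeks. Ccl3, a macrophage product that binds Ccr1, stood at 5.65 and 4.20, 4.92 and the floor, and 6.34 and 4.99, and its 8 week and control pools overlapped. Ccl24, an eosinophil attractant, stood at 4.07 and 4.41, 4.16 and 4.87, and 4.76 and 5.79. Ccl1, Ccr1l1, Ccr3, Ccr4, Ccr8, Xcl1 and Xcr1 had no kept probe set either, which makes 12 genes. In all, 4 probe sets, those of Ccr3 and Ccr8 and one each of Ccr9 and Cx3cl1, lay at the floor on all 6 arrays.

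Members lie in runs of neighbouring genes in the GRCm38.p6 reference, with all 50 genes found there. On chromosome 9, Ccr9, Cxcr6, Xcr1, Ccr1, Ccr1l1, Ccr3 and Ccr2 form one run. The 4 of these that were kept had 8 week changes from 0.14 to 2.30, all higher in both sexes at their brightest probe set. For Cxcr6 the difference in females was 0.0055, and its second probe set was lower in both sexes (−0.09 and −0.48). For Ccr9 the value rests on the 1 kept probe set described above. On chromosome 11, the kept members of the run from Ccl2 to Ccl1 (Ccl2, Ccl11, Ccl12 and Ccl8) had changes from 0.19 to 1.70. Those of the run from Ccl5 to Ccl4 (Ccl5, Ccl9, Ccl6 and Ccl4) had changes from −0.14 to 1.83. Direct neighbours could differ, as Ccl9 and Ccl6 (1.26 and 1.83) did from Ccl5 (−0.14). On chromosome 5, Cxcl9, Cxcl10 and Cxcl11 had 0.69 to 2.10, and Cxcl15, Cxcl1 and Cxcl2 had −0.98 to 0.30.

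Some members differed between female and male pools in the same direction in all 3 groups, no more often than probe sets in general. The female pool was higher for 15 of the 56 kept probe sets, near the 24.9% of all kept probe sets. The male pool was higher for 12, below the 28.4% of all. Apart from the Ccr2 probe set above and the brightest of Cxcl1, Ccl20 was higher in females by 0.84 to 2.43 and Ccl5 by 0.64 to 1.36. Cxcr6, a receptor of tissue T cells, was higher in males by 0.64 to 1.92 at its brightest probe set. Its second probe set had no single direction, with female minus male differences of −0.40 in controls, 0.38 at 1 week and −0.0047 at 8 weeks. Ccr10 was higher in males by 0.74 to 1.03. With 1 pool of each sex in a group, these are descriptions of single pools.

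Genes that act beside the members were listed as atypical receptors and platelet chemokines (7 genes) and as receptor signalling and processing genes (21 measured, 20 kept). In each list 0 genes were called by limma at either time or between them. At an unadjusted p below 0.05, the first list had 1 higher and 1 lower in each comparison with control, and the second 0 at 1 week and 6 higher at 8 weeks. Of all probe sets, 3.03% were higher and 2.47% lower at this threshold at 1 week, and 11.8% and 11.2% at 8 weeks. From 1 to 8 weeks the counts were 2 higher and 1 lower in the first and 6 higher and 1 lower in the second. The shares of all probe sets were then 9.32% higher and 9.18% lower. The median changes of the 2 lists at 8 weeks were −0.16 and 0.16. The platelet chemokines Ppbp and Pf4 had 0.81 and 0.72 at 1 week (adjusted p = 0.901 and 0.894) and −0.37 and 0.32 at 8 weeks. The mean of 6 platelet markers was 7.51 in the female and 8.20 in the male 1 week pool, against 7.003 in the female control and 6.72 to 6.99 in the other 3 pools. Its part in these values was not tested. Ackr1, which binds chemokines on venules and red cells without signalling, had 0.66 at 8 weeks (adjusted p = 0.116), and the non-signalling receptor Ccrl2 had −0.49. Among signalling genes at 8 weeks, the highest values were those of the chemokine-cleaving elastase Mmp12 (1.56 ± 0.39, adjusted p = 0.124), the Src-family kinase Fgr (1.00) and the G protein regulator Rgs1 (0.90, adjusted p = 0.0711). Arrb2, which helps to internalise receptors, followed at 0.88 (adjusted p = 0.0682). Mmp12 had a mean of 4.85 in controls and at 1 week. It passed the filter only through its 8 week pools, at 7.25 in the female and 5.56 in the male.

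The mean levels of neutrophil, alveolar macrophage and monocyte markers were higher in both 8 week pools than in the other 4 pools. The mean level of 11 kept neutrophil markers was 7.53 and 7.54 in the female and male controls, 7.57 and 7.78 at 1 week, and 8.78 and 8.83 at 8 weeks. At 8 weeks all 11 were higher in both sexes and 4 were called (Mmp8, Clec4d, Mmp9 and Trem1). For this and the lists below, 36.5% of all kept probe sets were higher and 29% lower in both sexes at 8 weeks. Over all of them 0.207% were called higher, and 11.8% were higher with an unadjusted p below 0.05 in limma. The mean of 10 alveolar macrophage markers was 6.84 and 7.69 in controls, 7.80 and 7.15 at 1 week, and 9.19 and 8.95 at 8 weeks, with 8 higher in both sexes and 0 called in limma (8 with an unadjusted p below 0.05). The mean of 9 monocyte markers was 8.13 and 8.18, 8.36 and 8.27, and 8.99 and 9.18. At 8 weeks 7 of these were higher in both sexes and 1 was called (Ms4a7). Another 1 was lower in both sexes (−0.71), with both 8 week pools below both controls. The monocyte marker Csf1r changed by 0.006 at its brightest probe set and by 0.34 and 0.45 at the others. T cell markers (8 genes) stood at 7.09 and 6.72, 6.61 and 6.59, and 7.39 and 6.99, with 4 higher in both sexes at 8 weeks and 0 called in limma (3 with an unadjusted p below 0.05). The 8 week T cell means overlapped those of the controls. Of 6 dendritic cell markers, 2 were higher in both sexes at 8 weeks and the median change was 0.14. Of 7 B cell markers, 2 were higher in both sexes (median 0.35), and of 6 NK cell markers, 3 were higher in both sexes (median 0.05). In these 3 lists 0 were called in limma, and 1, 0 and 1 had an unadjusted p below 0.05. In each of the 3, and among the T cell markers, 1 gene was lower in both sexes. No marker with a probe set lay at the floor on all arrays, and Camp and Cd4 were the 2 not kept among these lists. The part of these cells in the chemokine values was not tested.

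**Figure D5:**
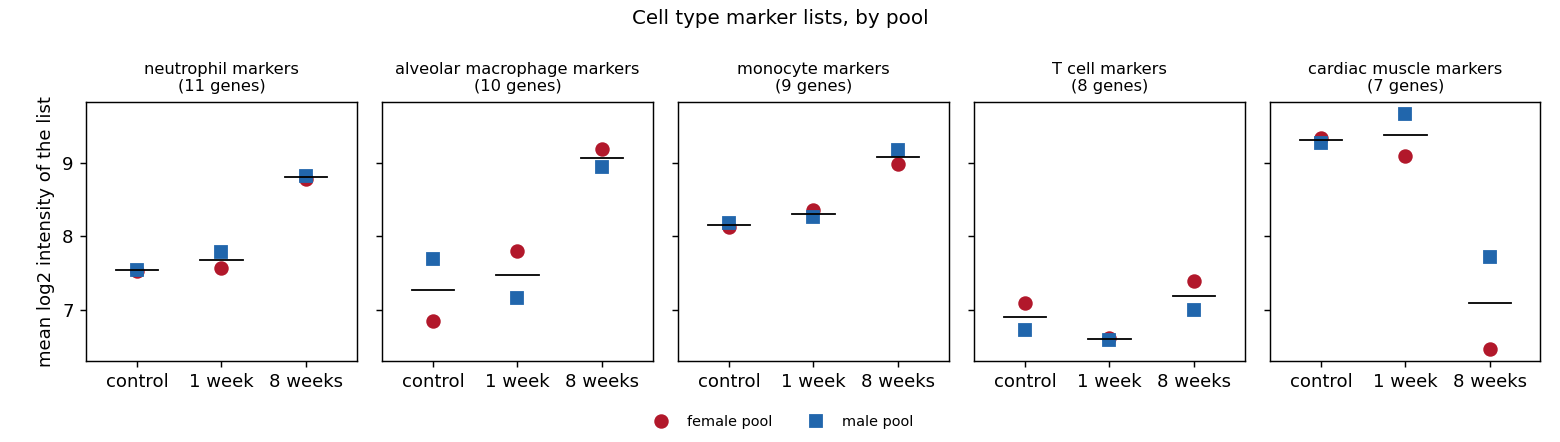
Mean log2 intensity of the kept genes of 5 marker lists by group, with a circle for the female pool, a square for the male pool and a bar at the group mean. Both 8 week pools lie above the other pools for neutrophil, alveolar macrophage and monocyte markers and below them for cardiac muscle markers.

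The 3 calls at 8 weeks were lost when any 1 of 5 arrays was left out. Without any 1 of the female control, male control, 1 week or female 8 week pools, no call remained among members or over the array. Without the male 8 week pool calls remained among members and in many other probe sets. In the 6 fits the change of Ccr1 lay between 1.999 and 2.63, that of Ccr9 between 1.45 and 1.71 and that of Ccl9 between 1.18 and 1.34. A group that loses an array is left with a single pool, and 1 of the 2 residual degrees of freedom is lost.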

How the data were processed

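Total lung RNA was labelled as biotinylated cRNA, per the labels' protocols, and hybridized to 1 Affymetrix array for each pool of 3 mice, 6 arrays and 18 mice in all. The authors deposited linear signal intensity values, from 10 to 11513.01. How they summarised and scaled the probe signals is not given in the sources used here. Medians of the deposited values were 50.49 to 63.41. Depth does not apply to arrays, and their number limits the precision. Nothing says how the mice of a pool were chosen, so p-values measure only the spread between these pools.

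Quantile normalization of the arrays was followed by a floor at the 20th percentile (15.46, log2 3.95) and by log2, and probe sets with a mean above the 40th percentile were kept (27022 of 45037). Symbols came from the platform annotation: 34945 probe sets had 1, 932 several and 9160 none. limma 3.58.1 (R 4.3.3) fitted group and sex over all 6 arrays, with 2 residual and 2.765 prior degrees of freedom, and p-values were Benjamini-Hochberg adjusted over all kept probe sets. Since no group held 2 pools of a sex, the residual spread mixed that between pools with any sex difference in response. A model of transgene, sex and their interaction tested whether females and males differed. The method was run on simulated data with independent noise and no sex effect. Such data cannot show how it behaves where the sexes respond differently. The alternatives changed normalization, floor, filter, sex term, arrays, moderation and probe sets.

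Each gene was represented by its brightest probe set. Genes given in full were those called and, for each comparison, up to 6 highest and 6 lowest with one sign in both sexes. Cxcl1, Cxcl2 and one Ccr2 probe set were added after their values were seen, and further members are given as examples of their role. The members, lists and rules were chosen with earlier results of these data known. Promoters of 37 of the 50 genes matched RefSeq by symbol. Python 3.11.15 and matplotlib 3.10.9 made the plots.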

Additional observations from a re-analysis of the deposited data

How the results depend on the processing

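The count of members called at 8 weeks, 3 as chosen, was 9 with arrays centred on their medians, 6 with the floor at the 40th percentile, 6 with log2(value + 16), 5 with 1 value per gene and 14 with trend and robust settings. It was 0 without the sex term (no replicate block), when dim probe sets were not removed, with only the arrays compared and with least squares, and 0 to 4 with each array left out. Of all probe sets, 161 as chosen, these settings called 705, 439, 583, 208 and 1916, then 0, 0, 0 and 0, and 0 to 1087. As deposited 461 were called, and 505 when only those above the 60th percentile were kept. At 1 week, 3 of all probe sets were called with trend and robust settings and 1 with 1 value per gene. From 1 to 8 weeks, 752, 118 and, with the 60th percentile filter, 62 of all probe sets were called, and 7 members with trend and robust settings and 1 with 1 value per gene. The cause was not tested.

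For 35 named results under 12 processing alternatives, counted over result and alternative, 359 values kept direction and call, 26 gained a call, 13 lost one and 0 reversed. Reversals occurred only with an array left out, 10 in all. Ranges then were −1.17 to 0.019 for Ccl20, −0.68 to 0.033 for Cxcl11, −2.79 to 0.24 for Cxcl1 and −5.87 to 0.39 for Cxcl2 at 1 week. At 8 weeks they were −2.50 to 0.53 for Cxcl1 and −4.00 to 2.24 for Cxcl2, and from 1 to 8 weeks −0.49 to 1.07 and −0.021 to 3.83. The labels give no replicate numbers, and the sex term itself paired the pools by sex; without it (no replicate block) 0 members and 0 of all probe sets were called at 8 weeks.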
